A study of Homo sapiens with 20 samples.

Results

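The 43 genes described here encode the lysosome and the autophagy machinery and were taken by name, out of 19593 genes counted. They fall into 5 roles: 3 transcription factors that regulate the pathway, 6 lysosomal membrane and lipid-handling proteins, 14 hydrolases, 6 subunits of the proton pump and 14 autophagy factors. All were measured in MM1.S cells, a line of wild-type genotype established from multiple myeloma. Cells received 10 nM dCBP-30 or the vehicle DMSO for 2, 6 or 24 h, with 3 libraries in each of the 6 groups, and every group was labelled with 4-thiouridine (4sU) in the last hour before harvest. dCBP-30 is a heterobifunctional degrader of the enhancer acetyltransferases CBP and p300. A further 2 libraries of cells without 4sU, for which the labels give no treatment, provided the background of the assay. The labels do not say whether the 3 libraries of a group came from separate cultures, so the tests measure the spread between these libraries, which may be technical. MM1.S is a single cell line.

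Lysosomes break down proteins, lipids, glycans and whole organelles with acid hydrolases, which work only while a vacuolar proton pump keeps the lumen acidic. In autophagy, a membrane forms around cytoplasm, closes, and fuses with the lysosome to deliver its content for breakdown. TFEB, TFE3 and MITF are related transcription factors that bind an E-box of the CLEAR type in the promoters of many of these genes when nutrients are short. Plasma cells, from which myeloma arises, secrete much protein and are known to rely on autophagy to limit their secretory load.

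In SLAM-seq, 4sU built into RNA is alkylated and sequenced as C where the genome has T. Reads carrying such T>C conversions (T>C reads) come from RNA transcribed in the labelling hour, and all reads together (total reads) follow the RNA present. Levels are given in RPM, reads scaled to 1000000 of the library's reads on genes, scaled by its TMM factor, a correction for composition. T>C reads are given on the same scale. Changes are log2 fold changes of dCBP-30 over DMSO with their standard error (SE), and a gene was said to rise or fall at an adjusted p under 0.05 in edgeR's quasi-likelihood test over all genes, with Benjamini-Hochberg adjustment. In these bulk samples, fewer cells and less RNA per cell cannot be told apart.

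The libraries held 12439665 to 18727385 reads on genes. T>C reads made up 5.99% to 8.62% of the reads under DMSO, 4.71% to 6.86% under dCBP-30, and 0.794% and 0.809% without 4sU. Plasma cell markers were all present under DMSO, where 9 of 9 reached 1 RPM. Their summed level was 5830 to 7570 RPM under DMSO and 620 to 5170 RPM under dCBP-30. None of 6 macrophage markers reached 1 RPM in a DMSO library, with LYZ and MRC1 at 0, and their sum stayed at or below 0.871 RPM under DMSO and 1.38 RPM under dCBP-30. None of 4 melanocyte markers did so either, although their sum, nearly all of it PMEL, reached 0.871 RPM under DMSO and 5.28 RPM under dCBP-30. Of 4 T cell markers, CD3D and TRBC1 were at 0 under DMSO, and the sum, mostly CD3E, was 2.24 to 7.58 RPM under DMSO and 2.75 to 16.2 RPM under dCBP-30.

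Of the 43 genes, 32 had a RefSeq promoter (250 bases before to 50 after the start) in the table used. No entry was found for LAMP2, PSAP, CTSB, CTSS, HEXA, ASAH1, ATP6V0E1, ATP6V1A, ATP6V1B2, ATP6V1H and UVRAG. The E-box core CACGTG, a palindrome read on both strands, was in 7 of the 32 genes (21.9%) and in 7.26% of 35116 promoter entries. A member was counted once if any of its entries held the motif. Shares of members and of entries are thus in unlike units, here and for the longer forms, and their difference was not tested. Its longer form TCACGTG, or CACGTGA on the opposite strand, was in the same 7 genes and in 3.71% of promoters. The full palindrome TCACGTGA, which contains both shorter motifs, was in 5 (15.6%) against 0.98%. The windows below, read 5′ to 3′ on the gene's strand from GRCh38.p14, are shown because this is the motif through which TFEB and its relatives are known to act on the pathway, and capitals mark the motif. A match is a description of the letters and no evidence of binding.

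LAMP1, chr13:113297199-113297228 on the plus strand: gacccgcgggaTCACGTGAcgcccgggcgc

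MCOLN1, chr19:7522571-7522600 on the plus strand: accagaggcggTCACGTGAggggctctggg

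CTSA, chr20:45891298-45891327 on the plus strand: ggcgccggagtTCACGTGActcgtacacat

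GAA, chr17:80101538-80101567 on the plus strand: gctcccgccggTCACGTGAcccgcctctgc

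ATP6V0D1, chr16:67481199-67481228 on the minus strand: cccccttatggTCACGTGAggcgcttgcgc

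CTSD, chr11:1763957-1763986 on the minus strand: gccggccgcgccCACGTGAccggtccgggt

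ATG14, chr14:55411834-55411863 on the minus strand: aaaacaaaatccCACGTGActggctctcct

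The core lay 28 bases before the start in the window shown for LAMP1, 41 in MCOLN1, 25 in CTSA, 31 in GAA, 59 in ATP6V0D1, 47 in CTSD and 21 in ATG14. LAMP1 held 6 copies of the core, MCOLN1, CTSA and GAA 2 each, and the others 1. The core was found in 3 of 10 hydrolase genes and in 1 of 13 autophagy genes with a promoter entry.

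Total RNA of the lysosome and autophagy genes changed little at 2 h, diverged at 6 h and was mostly higher at 24 h. At 2 h, 1 of the 43 rose (2.33%, against 1.53% of the 12298 genes tested) and 1 fell (2.33%, against 2.69%). At 6 h, 13 rose (30.2%, against 18.8%) and 4 fell (9.3%, against 21.4%). At 24 h, 28 rose (65.1%, against 28.8%) and 1 fell (2.33%, against 29.7%). More than 2-fold, 9 rose (against 15.1% of all genes) and 1 fell (against 16.0%) at 24 h. The median change of the 43 genes was 0.00, 0.14 and 0.59 at the 3 successive times, where the median of all genes was 0.00, 0.03 and 0.06.

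By role, 9 of 14 hydrolases rose at 24 h and 1 fell, with a median of 0.77. Among autophagy factors 10 of 14 rose, with a median of 0.83. Of the membrane and lipid-handling proteins 5 of 6 rose, with a median of 0.49, and of the proton pump 3 of 6, with a median of 0.34. TFE3 was the 1 regulator of 3 that rose. The autophagy factors had the most calls at 6 h, where 7 rose and 1 fell, against 3 hydrolases that rose. Of the 7 genes with the E-box core, 5 rose at 24 h (LAMP1, CTSD, GAA, ATP6V0D1 and ATG14), and of the 25 with a promoter entry and no core 16 rose and 1 fell. The median change at 24 h was 0.43 with the core and 0.62 without it. At 6 h, 1 of the 7 rose, and of the 25 without the core 10 rose and 2 fell. These differences were not tested.

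**Figure D1:**
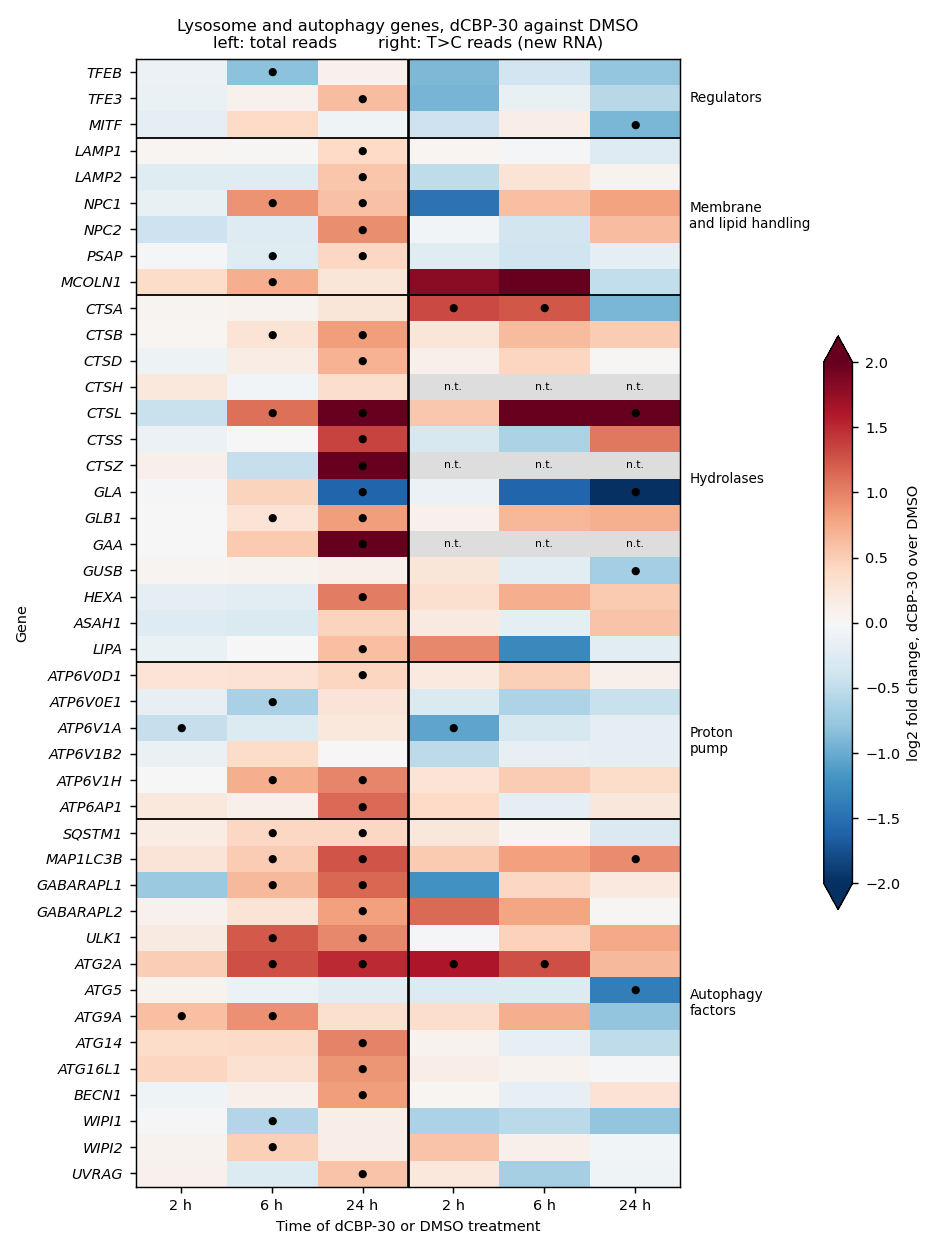
Heat map of the log2 fold change of dCBP-30 over DMSO for the 43 genes (rows, grouped by role) at 2, 6 and 24 h (columns), in total reads on the left and T>C reads on the right. Colours are capped at 2 in either direction, dots mark genes past the test and n.t. marks genes too low to be tested. Dots gather in the 24 h column of total reads (28 higher, 1 lower), while the T>C reads at 24 h hold 2 higher and 4 lower.

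The counts depended on scaling. At 24 h the reads on IGLL5, an immunoglobulin lambda-like gene, went from 6.86% under DMSO to 1.01% of the library under dCBP-30. Those on IGLC1 went from 6.04% to 0.886% and those on ITGB7 from 2.01% to 0.344%. The part of these genes in the dependence on scaling was not tested. Without TMM factors the median of all genes in total reads moved to 0.10, 0.35 and 0.58 at 2, 6 and 24 h. The members' median at 24 h was then 1.11. Without TMM the members that rose and fell were 1 and 0 (2 h), 25 and 0 (6 h), and 40 and 1 (24 h), and none of the 4 decreases at 6 h was called. The share of all genes called without TMM was not counted, so these counts are no result about the members alone.

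In DMSO alone, no member differed between 24 and 2 h in total reads by edgeR (background 0.0732% higher and 0.122% lower of all genes) or by DESeq2. At an unadjusted p under 0.05, 3 were higher and 5 lower.

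Among the regulators, TFE3 rose in total reads. Its level at 24 h was 37.6, 32.4 and 40.1 RPM under DMSO and 51.5, 66.1 and 51.6 RPM under dCBP-30. All dCBP-30 libraries lay above all DMSO libraries, and the change was 0.62 (SE 0.18, adjusted p = 0.005).

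TFEB, the best known regulator of lysosome formation, fell at 6 h and was not called at 24 h. It was at 10.0, 10.1 and 13.8 RPM under DMSO and at 5.45, 7.7 and 6.07 RPM under dCBP-30 at 6 h, which was a fall of 0.82 on the log2 scale (SE 0.27, adjusted p = 0.016). The groups did not overlap. The call was lost without dCBP-30 replicate 1 or DMSO replicate 3 of 6 h (-0.72 to -0.65) and without TMM factors (-0.50). At 24 h its change was 0.09 (SE 0.26, adjusted p = 0.78), and without TMM factors it was 0.61 and called.

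MITF, the relative best known from melanocytes, had less new RNA at 24 h. Its T>C level was 6.48, 5.43 and 3.91 RPM under DMSO and 2.57, 1.93 and 3.92 RPM under dCBP-30, so the highest dCBP-30 library overlapped the lowest DMSO library. The change of -0.91 (SE 0.37, adjusted p = 0.044) was lost without any 1 of 4 libraries of 24 h, dCBP-30 replicates 1 and 2 and DMSO replicates 1 and 2 (-0.89 to -0.70), without TMM factors (-0.40) and under scaling by T>C reads (-0.27). It was also lost with no filter on low counts and with the background subtracted. In total reads its estimate was -0.09 (SE 0.21, adjusted p = 0.73).

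Among the membrane and lipid-handling proteins, NPC2, the soluble protein that hands cholesterol to NPC1 in the lumen, changed most at 24 h. It measured 67.9, 111 and 99.4 RPM under DMSO and 185, 181 and 166 RPM under dCBP-30, with every dCBP-30 library above every DMSO library. The change was 0.93 (SE 0.17, adjusted p = 3.5e-05), while at 2 h it was -0.41 (SE 0.17, adjusted p = 0.19).

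NPC1, the membrane transporter of the same cholesterol route, rose earlier. At 6 h it went from 13.2, 8.91 and 9.76 RPM under DMSO to 17.3, 20.5 and 21.8 RPM under dCBP-30, and the change was 0.90 (SE 0.22, adjusted p = 0.0019). The groups were apart at 6 h. At 24 h they were apart too (0.59, SE 0.22, adjusted p = 0.023), but that call was lost without dCBP-30 replicate 1, DMSO replicate 2 or DMSO replicate 3 of 24 h (0.38 to 0.60), and with reads summed over transcripts (0.43).

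MCOLN1, a calcium channel of the lysosomal membrane, rose at 6 h. It measured 39.4, 30 and 30.7 RPM under DMSO and 45.9, 56.0 and 63.2 RPM under dCBP-30 at 6 h (0.72, SE 0.17, adjusted p = 0.0015). Its counted region overlaps exons of PNPLA6 and of a further coding gene on the same strand, so its reads cannot be assigned to it alone. The groups did not overlap at 6 h, and at 24 h the change was 0.24 (SE 0.17, adjusted p = 0.24), or 0.76 and called without TMM factors.

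PSAP, the precursor of the saposins that help hydrolases reach sphingolipids, went down and then up. At 6 h it was at 1840, 1930 and 1840 RPM under DMSO and 1570, 1640 and 1540 RPM under dCBP-30 (-0.24, SE 0.09, adjusted p = 0.03). At 24 h it was at 1510, 1590 and 1510 RPM under DMSO and 2070, 1950 and 2160 RPM under dCBP-30 (0.42, SE 0.09, adjusted p = 0.00021). The groups were apart at both times. The 6 h decrease turned to 0.08 without TMM factors and was lost without dCBP-30 replicates 1 or 3 or DMSO replicates 2 or 3 of 6 h (-0.25 to -0.22), with no filter on low counts and with each time point fitted alone. The structural glycoproteins LAMP1 and LAMP2 rose at 24 h by 0.40 (SE 0.10, adjusted p = 0.0018) and 0.56 (SE 0.14, adjusted p = 0.001).

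Among the hydrolases, 3 had the largest increases at 24 h of all 43 genes. CTSL, a cysteine protease, measured 1.62, 1.49 and 1.45 RPM under DMSO and 16.6, 16.7 and 15.7 RPM under dCBP-30. The change was 3.42 (SE 0.39, adjusted p = 3.7e-08). The dCBP-30 libraries stood far above DMSO, and at 6 h the change was 1.10 (SE 0.36, adjusted p = 0.019) with libraries that overlapped. That 6 h call was lost without dCBP-30 replicates 1 or 2 or DMSO replicate 1 of 6 h (0.77 to 0.96), with reads summed over transcripts and with each time point fitted alone.

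GAA, the acid alpha-glucosidase that degrades glycogen, was close to the detection limit under DMSO, with 10, 24 and 4 reads (0.648, 1.43 and 0.29 RPM). Under dCBP-30 at 24 h it had 120, 143 and 109 reads (6.57, 7.87 and 5.85 RPM), a change of 3.07 (SE 0.63, adjusted p = 0.00017). Of its 372 reads under dCBP-30 and 38 under DMSO at 24 h, 0 were T>C reads. No other time point separated the groups: the 6 h change was 0.53 (SE 0.63, adjusted p = 0.53).

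CTSZ, a cysteine carboxypeptidase, was at 13.1, 10.7 and 11.7 RPM under DMSO and 79.2, 64.3 and 58.8 RPM under dCBP-30 at 24 h. The groups were far apart, with a change of 2.51 (SE 0.23, adjusted p = 1.4e-09). At 6 h its estimate was -0.46 (SE 0.23, adjusted p = 0.12). CTSS and HEXA rose more than 2-fold as well, CTSS by 1.36 (SE 0.13, adjusted p = 3.8e-09) and HEXA, a subunit of beta-hexosaminidase, by 1.03 (SE 0.12, adjusted p = 1e-07).

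The increases of CTSB, CTSD, GLB1 and LIPA at 24 h lay between 0.61 and 0.84. CTSB and GLB1, a beta-galactosidase, also rose at 6 h, by 0.27 (SE 0.10, adjusted p = 0.031) and 0.28 (SE 0.11, adjusted p = 0.047). The call of CTSB at 6 h was lost without replicate 2 of either 6 h group (0.23 to 0.25) and that of GLB1 without any 1 of 13 libraries (0.21 to 0.32), and both were lost with no filter on low counts and with each time point fitted alone. LIPA, the lysosomal acid lipase, was lost without dCBP-30 replicate 2 or DMSO replicate 1 of 24 h (0.38 to 0.51). The counted regions of CTSD and HEXA overlap exons of other coding genes on the same strand, whose reads cannot be told apart from theirs. CTSA, CTSH, ASAH1 and GUSB did not pass the test in total reads at any time, with estimates of 0.10 to 0.44 at 24 h. Without TMM factors GUSB was called at 6 h (0.40) and at 24 h (0.62).

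GLA, alpha-galactosidase A, was the 1 member that fell at 24 h. Its level was 13.0, 22.6 and 15.9 RPM under DMSO and 5.97, 6.38 and 4.83 RPM under dCBP-30. The groups did not overlap, with dCBP-30 the lower one, and the change was -1.58 (SE 0.27, adjusted p = 1.4e-05). At 6 h its estimate was 0.45 (SE 0.26, adjusted p = 0.16), with wide spread under dCBP-30 (20.6, 18.6 and 9.62 RPM).

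In the proton pump, the accessory subunit ATP6AP1 and the regulatory subunit ATP6V1H rose at 24 h. ATP6AP1 was at 267, 220 and 236 RPM under DMSO and 533, 527 and 518 RPM under dCBP-30 (1.13, SE 0.12, adjusted p = 1.2e-08). ATP6V1H was at 15.6, 19.3 and 15.2 RPM under DMSO and 31.6, 33.0 and 33.9 RPM under dCBP-30 (0.97, SE 0.18, adjusted p = 6.1e-05). Both were clear of the DMSO libraries, and ATP6V1H already rose at 6 h by 0.73 (SE 0.18, adjusted p = 0.0025).

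ATP6V0D1, a subunit of the membrane sector, was at 109, 86.3 and 109 RPM under DMSO and 135, 127 and 149 RPM under dCBP-30 at 24 h. The groups did not overlap, but the change of 0.43 (SE 0.14, adjusted p = 0.01) was lost without dCBP-30 replicate 3 or DMSO replicate 2 of 24 h (0.33 to 0.37). ATP6V0E1, of the same sector, was at 187, 202 and 211 RPM under DMSO and 139, 139 and 104 RPM under dCBP-30 at 6 h, a fall of 0.65 (SE 0.16, adjusted p = 0.0019). Its estimate at 24 h was 0.25 (SE 0.16, adjusted p = 0.17). Without TMM factors the 6 h value was -0.33 and not called, and that of 24 h was 0.78 and called.

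ATP6V1A, the catalytic subunit, was the early decrease. At 2 h its total level was 350, 342 and 287 RPM under DMSO and 257, 228 and 226 RPM under dCBP-30 (-0.46, SE 0.12, adjusted p = 0.019). Its T>C level at 2 h was 24.5, 18 and 21.7 RPM under DMSO and 11.7, 11.3 and 8.2 RPM under dCBP-30 (-1.05, SE 0.20, adjusted p = 7.5e-05). Neither set of libraries overlapped. The T>C decrease held without any 1 library, while that in total reads was lost without dCBP-30 replicates 2 or 3 or DMSO replicates 1 or 2 of 2 h (-0.43 to -0.41), without TMM factors (-0.355) and with each time point fitted alone. By 24 h the total estimate was 0.21 (SE 0.12, adjusted p = 0.11), or 0.74 and called without TMM factors. ATP6V1B2, the nucleotide-binding partner of ATP6V1A, was not called at any time with TMM factors.

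**Figure D2:**
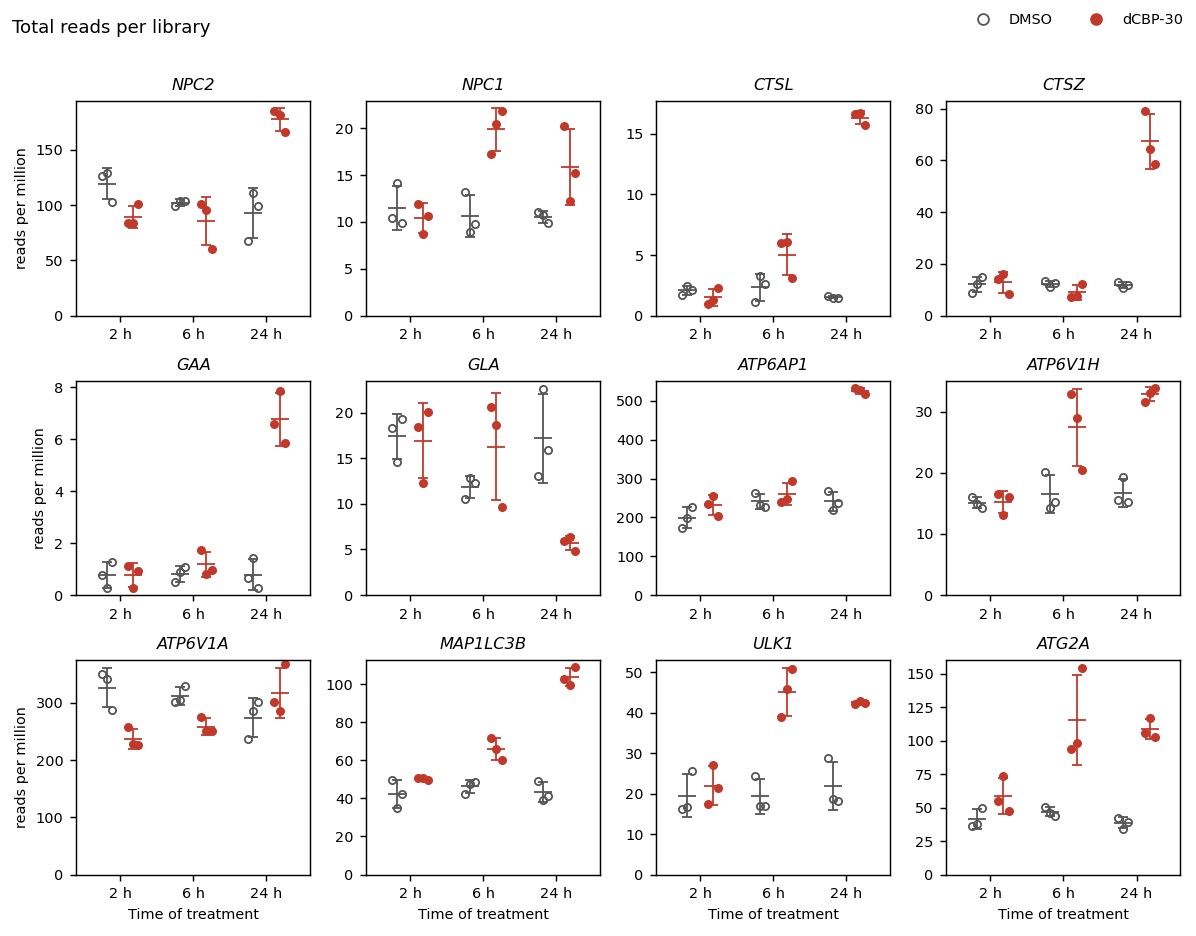
Total reads of 12 of the genes in every labelled library, in RPM (vertical axis, from 0) at 2, 6 and 24 h of treatment (horizontal axis). Open grey points are DMSO and filled red points dCBP-30 libraries, and bars give the mean and SD of 3. At 24 h dCBP-30 lies above DMSO for CTSL, CTSZ, GAA, NPC2 and ATP6AP1 and below it for GLA, while ATP6V1A is lower at 2 h and overlaps at 24 h.

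Among the autophagy factors, ATG2A and ULK1 rose at 6 h and at 24 h. ATG2A, which moves lipids into the growing autophagosome, was at 50.6, 46.1 and 44 RPM under DMSO and 93.5, 98.0 and 154 RPM under dCBP-30 at 6 h (1.29, SE 0.17, adjusted p = 1.6e-06). At 24 h it was at 42.2, 34.3 and 39.4 RPM under DMSO and 106, 117 and 103 RPM under dCBP-30 (1.49, SE 0.18, adjusted p = 8e-08). No library overlapped at either time.

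ULK1, the kinase that starts autophagy, was at 24.4, 16.9 and 16.9 RPM under DMSO and 39.1, 45.8 and 50.9 RPM under dCBP-30 at 6 h (1.23, SE 0.21, adjusted p = 3.9e-05). At 24 h it was at 28.8, 18.8 and 18.3 RPM under DMSO and 42.3, 43 and 42.5 RPM under dCBP-30 (0.95, SE 0.20, adjusted p = 0.00031). The groups were apart at both times.

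MAP1LC3B, which is attached to autophagosome membranes, was at 42.6, 47.4 and 48.9 RPM under DMSO and 71.9, 65.9 and 60.0 RPM under dCBP-30 at 6 h (0.51, SE 0.13, adjusted p = 0.0029). At 24 h it was at 49.3, 39.1 and 41.5 RPM under DMSO and 103, 99.9 and 109 RPM under dCBP-30 (1.26, SE 0.13, adjusted p = 8.5e-09). The estimate was larger at 24 h than at 6 h, a difference that was not tested, and the groups did not overlap at either time. Of its relatives, GABARAPL1 rose at 24 h by 1.14 (SE 0.24, adjusted p = 0.00027) and GABARAPL2 by 0.82 (SE 0.15, adjusted p = 4.9e-05). GABARAPL1 also rose at 6 h (0.64, SE 0.25, adjusted p = 0.04), a call lost without dCBP-30 replicates 1 or 3 or DMSO replicates 2 or 3 of 6 h (0.51 to 0.66) or with reads summed over transcripts. SQSTM1, a cargo receptor, rose by 0.41 (SE 0.10) at 6 h and at 24 h.

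Of the lipid kinase complexes that mark membranes of the pathway, BECN1, ATG14 and UVRAG rose at 24 h, by 0.83 (SE 0.12), 0.99 (SE 0.31) and 0.57 (SE 0.18). ATG16L1, of the conjugation machinery, rose by 0.89 (SE 0.25, adjusted p = 0.0037), while ATG5, its partner, was at -0.23 (SE 0.22, adjusted p = 0.36). Of the readers of that mark, WIPI2 rose at 6 h (0.47, SE 0.11, adjusted p = 0.00088).

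WIPI1 went the other way at 6 h, with 24.7, 27.1 and 31.7 RPM under DMSO and 19.3, 18.8 and 17.7 RPM under dCBP-30 (-0.58, SE 0.15, adjusted p = 0.003). The groups did not overlap, and without TMM factors the value was -0.27 and not called. ATG9A, a membrane protein of autophagosome seeds, was the 1 member that rose at 2 h (0.60, SE 0.17, adjusted p = 0.034), a call lost without dCBP-30 replicates 1 or 2 or DMSO replicates 1 or 3 of 2 h (0.48 to 0.62) or with each time point fitted alone. It rose at 6 h by 0.92 (SE 0.16, adjusted p = 6.3e-05) and was not called at 24 h (0.33, SE 0.16, adjusted p = 0.087). Its counted region overlaps an exon of another coding gene.

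New RNA gave few calls. T>C reads of 40 of the 43 genes passed the filter on low counts, and CTSH, CTSZ and GAA did not. At 2 h, 2 of the 40 rose (5% against 2.36% of the 10112 genes tested) and 1 fell (2.5% against 8.34%). At 6 h, 2 rose (5% against 3.08%) and 0 fell (against 21.2%), with 1 lower at an unadjusted p under 0.05 in edgeR and 0 by DESeq2. At 24 h, 2 rose (5% against 2.88%) and 4 fell (10% against 36.8%). Of those that rose, CTSL passed the filter only through the dCBP-30 libraries of 24 h.

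The share of all genes that lost new RNA grew to 36.8% at 24 h, while that of the 40 members was 10%. At 24 h, new RNA fell in 33.3% of 12 further pump subunits, 26.3% of 19 nutrient-signal genes and 20% of 25 further hydrolases. It fell in 11.8% of 17 further membrane and sorting genes and 7.14% of 28 further autophagy genes. At 6 h these shares ran from 4% (hydrolases) to 35.3% (membrane and sorting), against 21.2% of all genes. The low share of the members was thus not common to all genes of the pathway. The members' median change in T>C reads was 0.09, 0.06 and -0.05 at 2, 6 and 24 h, where that of all genes was 0.04, -0.27 and -0.68. Relative to all genes, the members' median at 24 h was 0.63 higher. The sign of the members' own median depended on scaling, being 0.47 without TMM and 0.61 when scaled by T>C reads. The median of all genes was then -0.16 and -0.02. A change of scaling shifts all genes by nearly the same amount, so the members' distance of 0.63 from that median could hardly move. That distance is therefore no check on the scaling. The counts at 24 h depended on scaling too, with 9 higher and 1 lower without TMM and 12 higher and 1 lower when scaled by T>C reads. At 6 h both of those scalings gave 7 higher and 0 lower. The share of all genes called was not counted under these scalings, so the counts cannot be set against it.

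By role, the hydrolases had the highest median in T>C reads at 24 h (0.51 over 11 tested), followed by the proton pump (-0.03), the autophagy factors (-0.05), the membrane proteins (-0.07) and the regulators (-0.77). Without TMM factors the medians of the pump, the autophagy factors and the membrane proteins were above 0, at 0.49, 0.47 and 0.46. The median of all genes was then -0.16. The ranges overlapped, the hydrolases alone running from -3.58 (GLA) to 3.72 (CTSL), both on few T>C reads.

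The labelling itself differed at 24 h. Each T>C read of the members carried on average 2.53 ± 0.036 (SD, n = 3) conversions under DMSO and 1.40 ± 0.061 under dCBP-30 at 24 h, against 2.25 ± 0.14 and 2.23 ± 0.067 at 2 h and 1.02 ± 0.031 (SD, n = 2) without 4sU. The part of this drop in the T>C changes at 24 h was not tested.

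**Figure D3:**
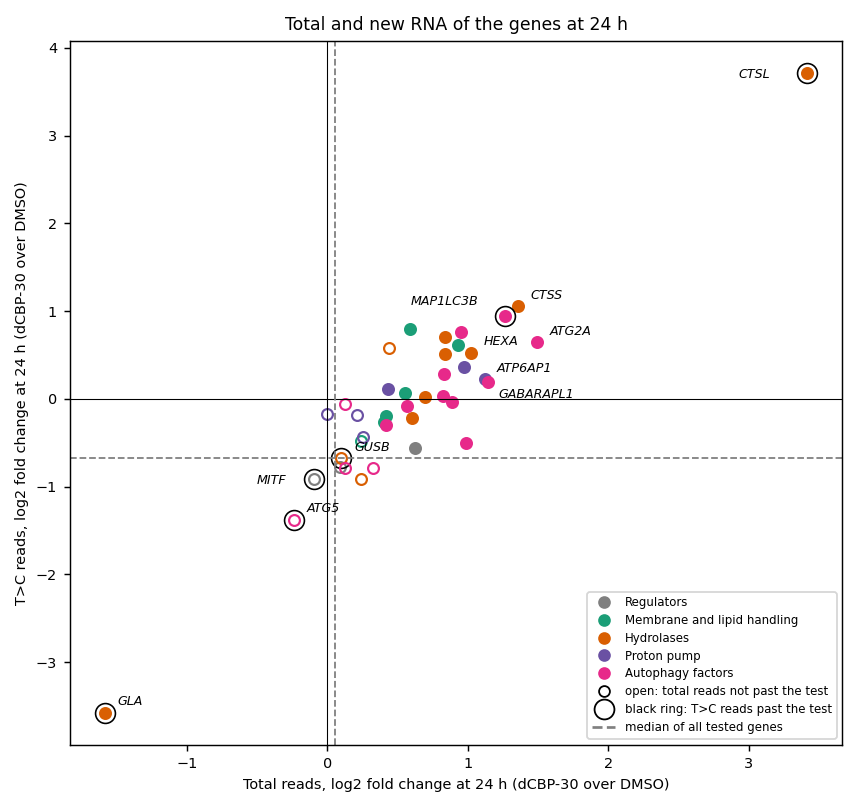
Log2 fold change at 24 h in total reads (horizontal) and in T>C reads (vertical) for the 40 genes tested in both, coloured by role, with filled points past the test in total reads and black rings past it in T>C reads. T>C reads are a part of the total reads, so the axes are not independent. Dashed lines are the medians of all tested genes (0.06 and -0.68), most members lie to the right of and above them, and CTSL and GLA stand at opposite ends in both measures.

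CTSA, a carboxypeptidase that also shields GLB1, had more new RNA at 2 and 6 h. Its T>C level was 2.16, 2.26 and 1.49 RPM under DMSO and 4.75, 4.55 and 5.44 RPM under dCBP-30 at 2 h (1.31, SE 0.42, adjusted p = 0.031). At 6 h it was 2.83, 1.01 and 1.02 RPM against 2.87, 3.66 and 4.96 RPM (1.25, SE 0.43, adjusted p = 0.024). At 24 h it was 3.76, 6.32 and 5.0 RPM against 3.4, 1.82 and 2.79 RPM (-0.91, SE 0.41, adjusted p = 0.068). The libraries did not overlap at any of the 3 times, and the estimate was below 0 at 24 h without passing the test. The median of all genes was -0.68 in the 24 h comparison. The 2 h call was lost without any 1 of the 6 libraries of 2 h (1.15 to 1.43), and that of 6 h without dCBP-30 replicate 3 or DMSO replicates 2 or 3 of 6 h (0.99 to 1.02) and with each time point fitted alone. In total reads CTSA was not called, its highest estimate being 0.24 at 24 h.

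ATG2A had more new RNA at 2 h, when its total level was not called. In total reads it was then at 41.4 ± 7.37 RPM under DMSO and 58.5 ± 13.4 RPM under dCBP-30 (SD, n = 3). It was at 3.01, 1.9 and 2.77 RPM in T>C reads under DMSO and 9.67, 8.12 and 5.94 RPM under dCBP-30 (1.62, SE 0.39, adjusted p = 0.002). The groups were clearly apart at 2 h. At 6 h the libraries overlapped (3.18, 1.34 and 2.71 RPM against 2.51, 5.21 and 10.0 RPM), and the change of 1.29 (SE 0.39, adjusted p = 0.0094) was lost without dCBP-30 replicate 3 or DMSO replicate 2 of 6 h (0.68 to 1.00) and with reads summed over transcripts. At 24 h it was 0.65 (SE 0.38, adjusted p = 0.17).

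MAP1LC3B rose in new RNA at 24 h, with T>C levels of 4.66, 5.78 and 3.77 RPM under DMSO and 7.89, 8.86 and 10.8 RPM under dCBP-30 (0.95, SE 0.32, adjusted p = 0.013). The groups were apart, but the call was lost without replicate 3 of either 24 h group (0.81 to 0.82). CTSL rose on few reads: 4, 0 and 0 T>C reads under DMSO and 36, 20 and 12 under dCBP-30 at 24 h. Its T>C reads summed to 3 and 31 under dCBP-30 and to 2 and 5 under DMSO at 2 and 6 h. CTSL thus passed the filter on low counts only through the group where it was high, and its value is not independent of that filter. Its change of 3.72 (SE 1.41, adjusted p = 0.029) was lost without any 1 of dCBP-30 replicates 1 and 2 and DMSO replicates 2 and 3 of 24 h (3.15 to 3.79), with the background subtracted and with reads summed over transcripts. Without DMSO replicate 1 of 24 h the value was 7.27.

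GLA fell in new RNA as in total RNA, with 15, 34 and 7 T>C reads under DMSO and 3, 2 and 0 under dCBP-30 at 24 h (-3.58, SE 1.10, adjusted p = 0.0067). The call was lost without DMSO replicate 2 of 24 h (-2.92). ATG5 was at 3.69, 4.23 and 4.86 RPM in T>C reads under DMSO and 2.14, 1.05 and 1.72 RPM under dCBP-30 (-1.38, SE 0.48, adjusted p = 0.019). It was clear of overlap, and lost its call without dCBP-30 replicate 2 or DMSO replicate 3 of 24 h (-1.28 to -1.14) as well as without TMM factors (-0.86) and scaled by T>C reads (-0.73).

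GUSB, beta-glucuronidase, was at 17.6, 18.9 and 17.7 RPM in T>C reads under DMSO and 8.22, 12.4 and 13.4 RPM under dCBP-30 at 24 h (-0.67, SE 0.21, adjusted p = 0.0086). All dCBP-30 libraries were lower. The median of all genes moved by -0.68 in the same comparison, and the value was -0.15 without TMM factors and -0.015 when scaled by T>C reads, neither of them called. The call was also lost without dCBP-30 replicate 1 of 24 h (-0.49). Over all alternatives of processing the value ran from -1.56 to -0.015. Without 4sU, 2.65% of the reads of GUSB were T>C reads, against 3.98% under dCBP-30 and 6.82% under DMSO at 24 h. Its T>C reads are thus not new RNA alone.

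**Figure D4:**
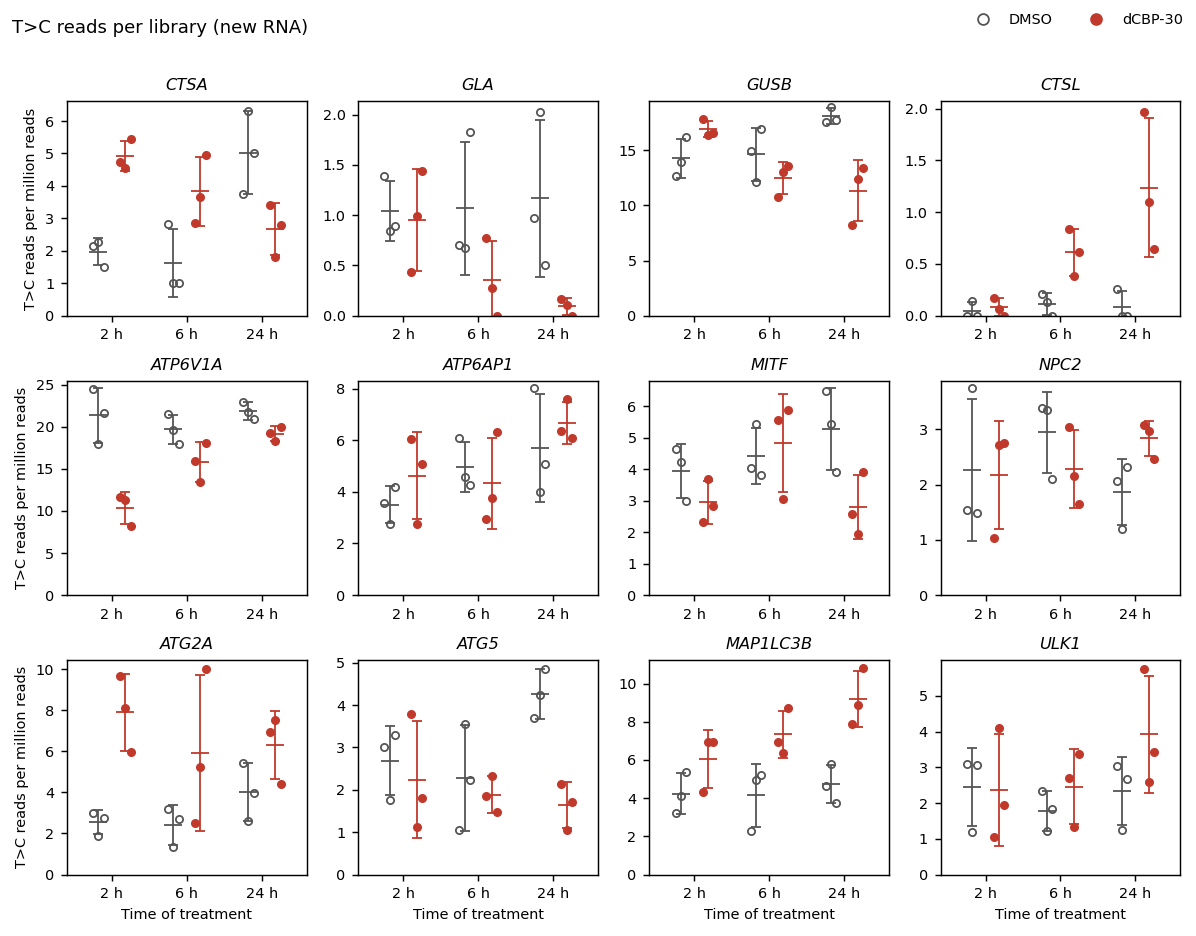
T>C reads of 12 of the genes in every labelled library, in RPM (vertical axis, from 0) at 2, 6 and 24 h of treatment (horizontal axis). Open grey points are DMSO and filled red points dCBP-30 libraries, with the mean and SD of 3. ATP6V1A is lower and CTSA and ATG2A are higher under dCBP-30 at 2 h, and GLA and ATG5 are lower and CTSL and MAP1LC3B higher at 24 h.

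Members also differed in the T>C share of their reads. The counted regions differed too, from 1 part of 214 bases in MCOLN1 to 17 parts of 3029 bases in ATG16L1, for example. They spanned several exons in 22 members. The part of these differences in the shares was not tested, so the shares are not a measure of new RNA alone. Under DMSO at 2 h, the T>C share of a member's reads ran from 1.03% (MCOLN1) over a median of 5.28% to 41.5% (ATG16L1). The median was 11.2% for autophagy factors, 5.76% for the proton pump, 3.19% for hydrolases and 1.91% for membrane proteins. Without 4sU the median was 0.614% and ATG16L1 stood highest with 6.38%.

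Whether the effect of dCBP-30 differed between 24 and 2 h was tested as an interaction. In total reads it was higher at 24 h for 22 of 43 (51.2%, against 18.4% of all genes) and lower for GLA (2.33%, against 22.6%). In T>C reads it was higher for ATP6V1A (2.5%, against 3.05%) and lower for CTSA and GUSB (5%, against 22.7%). Without TMM the T>C counts were 4 higher and 1 lower, where the share of all genes was not counted.

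CTSL, GAA and CTSZ had the largest differences in total reads, 3.86 (SE 0.55), 3.08 (SE 0.91) and 2.41 (SE 0.33). For CTSA in T>C reads the effect went from 1.31 to -0.91, a difference of -2.23 (SE 0.59, adjusted p = 0.0028). The median of all genes went from 0.04 to -0.68, and the median difference was -0.71. Over the alternatives of processing the difference of CTSA ran from -2.99 to -1.59. For ATP6V1A the effect in T>C reads went from -1.05 to -0.19, a difference of 0.86 (SE 0.28, adjusted p = 0.017). This call was lost without dCBP-30 replicate 3 or DMSO replicate 1 of 2 h (0.69 to 0.75). GUSB differed by -0.92 (SE 0.30, adjusted p = 0.018), and without dCBP-30 replicate 1 of 24 h by -0.74, without TMM factors by -0.50 and scaled by T>C reads by -0.27, none of them called.

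Other genes of the pathway were counted in total reads at 24 h, where 28.8% of all genes rose and 29.7% fell. Of 28 further hydrolases tested, 16 rose and 4 fell. CTSF, a cysteine protease, rose from 1.46 ± 0.487 to 27.4 ± 4.94 RPM (SD, n = 3), by 4.22 (SE 0.37), and CTSC, which activates granule proteases, fell from 48.1 ± 8.2 to 14.7 ± 3.89 RPM, a change of -1.71 (SE 0.20).

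Of 12 further pump subunits 4 rose and 2 fell, with ATP6V0A1 at 0.72 (SE 0.15) and ATP6V0A2, another form of the same subunit, at -0.67 (SE 0.21). Of 28 further autophagy genes 16 rose and 2 fell, with the mitophagy receptor BNIP3L at 1.49 (SE 0.17) and the conjugating enzyme ATG3 at -0.95 (SE 0.14). Of 19 further membrane and sorting genes 9 rose and 3 fell, led by the channel TMEM175 at 2.23 (SE 0.23) and LAMP3 at -1.32 (SE 0.41).

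Among 21 genes that pass nutrient signals to TFEB and its relatives, 11 rose and 3 fell. CASTOR1, an arginine sensor, rose by 1.70 (SE 0.45, adjusted p = 0.0022), and DEPTOR, an inhibitor of the mTOR kinase, fell from 179 ± 10.8 to 18 ± 7.02 RPM, a change of -3.32 (SE 0.23, adjusted p = 1.1e-10).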

How the data were processed

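MM1.S SLAM-seq libraries (18 labelled, 2 without 4sU) were analysed, with groups from the sample titles. Per the study's methods, reads from a 3′-end kit were trimmed with Trim Galore, processed with Slamdunk, mapped to UTRs of hg38 and collapsed per transcript. The authors deposited these raw counts of reads and T>C reads, unnormalized and unpooled. Fly RNA was added before alkylation, and its use in scaling is not given in the sources used here, so all values are relative to each library's own reads.

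Of 97466 transcripts, 89088 (91.4%) matched GENCODE release 44, and each gene took its transcript with the most reads over all libraries. Tests used edgeR 4.0.16 in R 4.3.3 with limma 3.58.1 (robust quasi-likelihood fit of 6 group means over 18 libraries, library sizes from total reads with TMM factors for both kinds of read, filterByExpr with a minimum count of 10, Benjamini-Hochberg adjustment). Scripts were first tested on simulated data. DESeq2 1.42.0 was an alternative, and Python 3.11.15 was used for summaries. The study's methods used DESeq with a 2-fold cutoff, which is given as an alternative.

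Members and lists were chosen with earlier results of these data known. Genes given in full were, for each role and direction, up to 3 called members with the largest change and a mean of at least 20 reads in the higher group, plus the regulators. CTSA was added after its values were seen. Promoters came from RefSeq (GRCh38.p14). Alternatives were other scalings, filters and transcripts, background subtraction, a stricter threshold, each time point alone, the replicate number as a block, and each library left out in turn.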

Additional observations from a re-analysis of the deposited data

Results flagged for a closer look

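The effect of dCBP-30 at 24 h minus that at 2 h (log2, interaction test in edgeR's quasi-likelihood fit with Benjamini-Hochberg adjustment) passed the threshold for the values below, so the response of these genes differed between the 2 times. In T>C reads the difference was -2.23 for CTSA, -0.92 for GUSB and 0.86 for ATP6V1A, where the median of all genes was -0.71. That of GUSB was -0.50 without TMM factors and -0.27 when scaled by T>C reads, neither of them called.

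In total reads, among regulators and membrane or lipid-handling proteins, it was 0.75 for TFE3, 0.36 for LAMP1, 0.8 for LAMP2, 1.34 for NPC2 and 0.45 for PSAP. That of LAMP1 was lost without any 1 of 15 libraries (0.31 to 0.39), with no filter on low counts and with reads summed over transcripts, and that of TFE3 without any 1 of 4 (0.53 to 0.67), replicate 3 of both 2 h groups and replicate 2 of both 24 h groups.

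Among hydrolases it was 0.8 for CTSB, 0.79 for CTSD, 3.86 for CTSL, 1.48 for CTSS, 2.41 for CTSZ, 0.84 for GLB1, 3.08 for GAA, 1.22 for HEXA and -1.55 for GLA. GLA was the member with a difference below 0 in total reads.

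In the proton pump it was 0.68 for ATP6V1A, 0.96 for ATP6V1H and 0.91 for ATP6AP1. Among autophagy factors it was 1.01 for MAP1LC3B, 1.89 for GABARAPL1, 0.73 for GABARAPL2, 0.78 for ULK1, 1.0 for ATG2A and 0.92 for BECN1. That of ULK1 was lost without any 1 of 8 libraries (0.53 to 0.78) and with reads summed over transcripts.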

How the results depend on the processing

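In total reads at 24 h, 28 of the 29 calls held in every alternative of processing other than the 2-fold threshold, and 26 without any 1 library. Of the 17 calls at 6 h, 9 and 11 did, and of the 6 T>C calls at 24 h 2 and 0. The 2-fold threshold left fewer, as given below. Without TMM factors, members higher in T>C reads were 7 at 6 h, 9 at 24 h (1 lower) and 4 in the change from 2 to 24 h (1 lower), and in total reads 25 at 6 h (0 lower) and 35 in the change, with 0 lower at 2 h. Scaled by T>C reads, 7 were higher at 6 h, 12 at 24 h (1 lower) and 4 in the change (1 lower). With DESeq2, 4 were higher in T>C reads at 6 h and 2 in the change. With reads summed over transcripts these were 1 and 2, and with a mean of at least 20 reads the change gave 2. Background subtraction left 1 higher in T>C reads at 24 h. With no filter, 2 were higher and 3 lower in total reads at 2 h, and with each time point alone 0 and 0. With a 2-fold threshold added, T>C reads gave 1 higher and 2 lower at 24 h and 0 higher and 1 lower in the change, and total reads gave 0 and 0 at 2 h, 3 and 0 at 6 h, 9 higher and 1 lower at 24 h and 8 higher in the change. The causes were not tested. Apart from the 2-fold threshold, the share of all genes called was not counted under these alternatives.

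Leaving out 1 library at a time, members higher and lower in T>C reads ranged over 1 to 2 and 1 to 2 at 2 h, 0 to 3 and 0 at 6 h, 0 to 3 and 2 to 5 at 24 h, and 0 to 2 and 1 to 4 in the change. In total reads they were 0 to 2 and 0 to 1 at 2 h, 10 to 14 and 2 to 5 at 6 h, 27 to 28 and 1 at 24 h, 20 to 24 and 1 in the change, and 0 and 0 in DMSO alone. The sign turned for ATP6V1A in T>C reads at 24 h when scaled by T>C reads (0.471), and without TMM factors for PSAP at 6 h (0.076) and ATP6V1B2 at 24 h (0.522) in total reads.

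Libraries of the same replicate number correlated at -0.247 to 0.063 in their deviations from the group means, so the numbers do not pair them. With the replicate block, 0 members were higher at 2 h, 11 higher and 4 lower at 6 h, and 28 higher and 1 lower at 24 h in total reads, and 20 were higher in the change. In T>C reads 3 were higher at 6 h and 3 lower at 24 h. Members not called with the block were ATG9A at 2 h, GLB1 and GABARAPL1 at 6 h and LAMP1 and ULK1 in the change in total reads, and MITF at 24 h in T>C reads.

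Several T>C values rest on few reads, as for CTSL and GLA. Scaling to each library's own reads cannot show a change shared by all RNA.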
